A study of Mus musculus with 64 samples.

Results

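A set of 10 genes that carry glucose into the heart muscle cell and hand it to the first and last steps of glycolysis was followed through pressure overload. They are Slc2a1, Slc2a4, Hk1, Hk2, Pfkm, Pfkp, Fbp2, Ldha, Ldhb and Pdk4, taken by symbol from a table of 30285 gene entries, and all 10 were among the 13653 entries with an FPKM (fragments scaled to transcript length and to mapped reads) of at least 1 in at least 4 libraries. RNA came from frozen cardiac tissue of 64 male C57BL6 mice that were 3 to 4 months old at surgery, with 1 library per heart. The 4 conditions were KOTAC (cardiac Ndufs4 knockout with transverse aortic constriction, TAC, which narrows the aorta and loads the left ventricle), WTTAC (wild type with TAC), KOSH (knockout with sham surgery) and WTSH (wild type with sham surgery). Hearts were taken after surgery at week 1, week 2, week 4 or week 8, with 4 hearts per condition and week and 16 per condition. Ndufs4, which encodes a subunit of mitochondrial complex I, was deleted with a Cre recombinase under the αMHC promoter acting on loxP sites, so the deletion was directed to cardiomyocytes while other cell types kept the gene. Whether the wild-type mice carried Cre or the loxP sites is not given in the sources used here.

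Glucose enters the cardiomyocyte through SLC2A1 (GLUT1), a transporter that sits largely at the cell surface, and SLC2A4 (GLUT4), which insulin and contraction move to the surface. Hexokinases trap it as glucose 6-phosphate, phosphofructokinase commits it to glycolysis, fructose bisphosphatase runs the opposite reaction, lactate dehydrogenase interconverts pyruvate and lactate, and pyruvate dehydrogenase kinase holds pyruvate back from the mitochondria. The adult heart burns mostly fatty acids, and a shift towards glucose and towards the isoforms of the fetal heart is known from hypertrophied hearts.

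Ndufs4 averaged 27.9 ± 6.23 FPKM in KOTAC, 101 ± 30.0 in WTTAC, 31.4 ± 5.56 in KOSH and 109 ± 19.2 in WTSH hearts (SD, n = 16 each), and every knockout heart was below every wild-type heart. Depth is unknown from FPKM, and the libraries held 11689 to 13101 genes at an FPKM of at least 1. The cardiomyocyte markers Actc1, Tnnt2 and Myl2 were abundant in every library, while Myh6 was listed at 0 in 4 libraries. At week 2, hearts 3 and 4 of KOTAC and hearts 3 and 4 of WTTAC gave libraries in which longer transcripts read relatively low. Each doubling of length shifted log2 expression by -0.1433 to -0.117 in these 4 libraries, against -0.0562 to 0.0701 in the other 60. Several results that they move are also given without them. The comparisons share hearts, since KOTAC hearts enter both KOTAC vs. KOSH and KOTAC vs. WTTAC, and KOSH hearts both KOTAC vs. KOSH and KOSH vs. WTSH.

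To show what lies just upstream of the genes that moved together, 250 bases before the RefSeq transcription start (GRCm38.p6) are printed for Pfkp and Fbp2, which changed most in opposite directions, and for Slc2a1 and Ldha, which rose with Pfkp. Capitals mark ACGTG, the core of the hypoxia response element, and CACGTG, the E-box, on either strand, with each ACGTG match inside a CACGTG match counted for both. The regions are chr13:6648772-6649021 (- strand) for Pfkp, chr13:62858401-62858650 (- strand) for Fbp2, chr4:119108495-119108744 (+ strand) for Slc2a1 and chr7:46845554-46845803 (+ strand) for Ldha, each written 5′ to 3′ towards the start.
Pfkp: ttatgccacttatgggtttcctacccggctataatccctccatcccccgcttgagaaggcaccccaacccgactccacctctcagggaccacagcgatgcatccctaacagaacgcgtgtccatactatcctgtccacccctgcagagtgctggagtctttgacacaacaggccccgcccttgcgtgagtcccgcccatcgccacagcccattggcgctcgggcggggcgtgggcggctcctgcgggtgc
Fbp2: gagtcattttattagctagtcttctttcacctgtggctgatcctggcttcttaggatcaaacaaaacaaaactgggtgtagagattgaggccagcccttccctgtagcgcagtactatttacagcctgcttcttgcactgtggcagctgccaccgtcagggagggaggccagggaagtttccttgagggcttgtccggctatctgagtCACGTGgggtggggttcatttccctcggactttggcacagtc
Slc2a1: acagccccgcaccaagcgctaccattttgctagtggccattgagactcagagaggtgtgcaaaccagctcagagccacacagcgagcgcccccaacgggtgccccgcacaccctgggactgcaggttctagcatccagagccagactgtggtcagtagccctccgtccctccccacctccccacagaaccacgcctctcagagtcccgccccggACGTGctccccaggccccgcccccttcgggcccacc
Ldha: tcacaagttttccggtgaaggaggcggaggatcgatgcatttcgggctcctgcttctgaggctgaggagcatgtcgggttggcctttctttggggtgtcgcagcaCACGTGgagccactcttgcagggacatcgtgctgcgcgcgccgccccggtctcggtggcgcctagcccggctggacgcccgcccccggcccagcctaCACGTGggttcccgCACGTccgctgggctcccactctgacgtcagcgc
An E-box holds ACGTG on both strands and so counts as 2 matches to it. The Ldha window held 5 matches to ACGTG with 2 E-boxes among them, and the Fbp2 window 2 matches in its 1 E-box. The Slc2a1 window had 1 match, and the Pfkp window had none. Of the 10 genes, 9 had an entry in the promoter table, with 14 windows in all. ACGTG was in 6 of these 14 windows (Slc2a1, Hk2, Fbp2, the first of Ldha and the first and second of Pfkm), against 16.6% of 32851 windows of all genes. CACGTG was in 3 of 14 (Fbp2, the first of Ldha and the first of Pfkm), against 6.02% of all windows. TCAAGGTCA, an estrogen-related receptor element, was in 0 of 14 and in 0.387% of all windows. The E-box thus stood both upstream of a gene that fell (Fbp2) and of one that rose (Ldha), and a match of letters is a description of sequence.

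Pressure overload moved 8 of the 10 genes, in the same directions in both genotypes. Slc2a1, Hk1, Pfkp and Ldha rose, and Slc2a4, Pfkm, Fbp2 and Ldhb fell. The call was limma's adjusted p (Benjamini-Hochberg over 13653 genes) under 0.05 on log2(FPKM + 1), as the mean of the 4 weekly differences with a residual spread shared by all 64 hearts. In KOTAC vs. KOSH 62% of all tested genes were called, 48% higher and 14% lower, and in WTTAC vs. WTSH 59.9%, 48.2% higher and 11.7% lower. The 4 of 10 genes that rose are thus near the share of all genes in either genotype, and the 4 of 10 that fell are above it. The median difference of the 10 genes was -0.26 in KOTAC vs. KOSH and -0.22 in WTTAC vs. WTSH, beside 0.13 and 0.14 over all tested genes. Median-of-ratios scaling of the libraries brings those medians of all genes to 0.00 and the share of calls that are higher to 50.2% in KOTAC vs. KOSH and 50.6% in WTTAC vs. WTSH, against 77.4% and 80.4% on FPKM as deposited. On that scale 4 of the 10 genes rose and 6 fell in KOTAC vs. KOSH, beside 4066 higher and 4039 lower of all 13653 genes. In WTTAC vs. WTSH 2 rose and 5 fell, beside 3882 higher and 3790 lower of all genes. Quantile normalization gave 44.3% of calls as higher in KOTAC vs. KOSH and 44.7% in WTTAC vs. WTSH. With it 4 of the 10 rose and 6 fell in KOTAC vs. KOSH, beside 3646 higher and 4581 lower of all genes. In WTTAC vs. WTSH 3 rose and 5 fell, beside 3455 higher and 4283 lower of all genes. No gene of the 10 changed direction under either scaling. Without the 4 libraries of week 2, 4 of the 10 rose and 5 fell in both genotypes, Hk2 being the gene added. In bulk tissue, fewer cells of a type and less RNA per cell cannot be told apart.

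**Figure D1:**
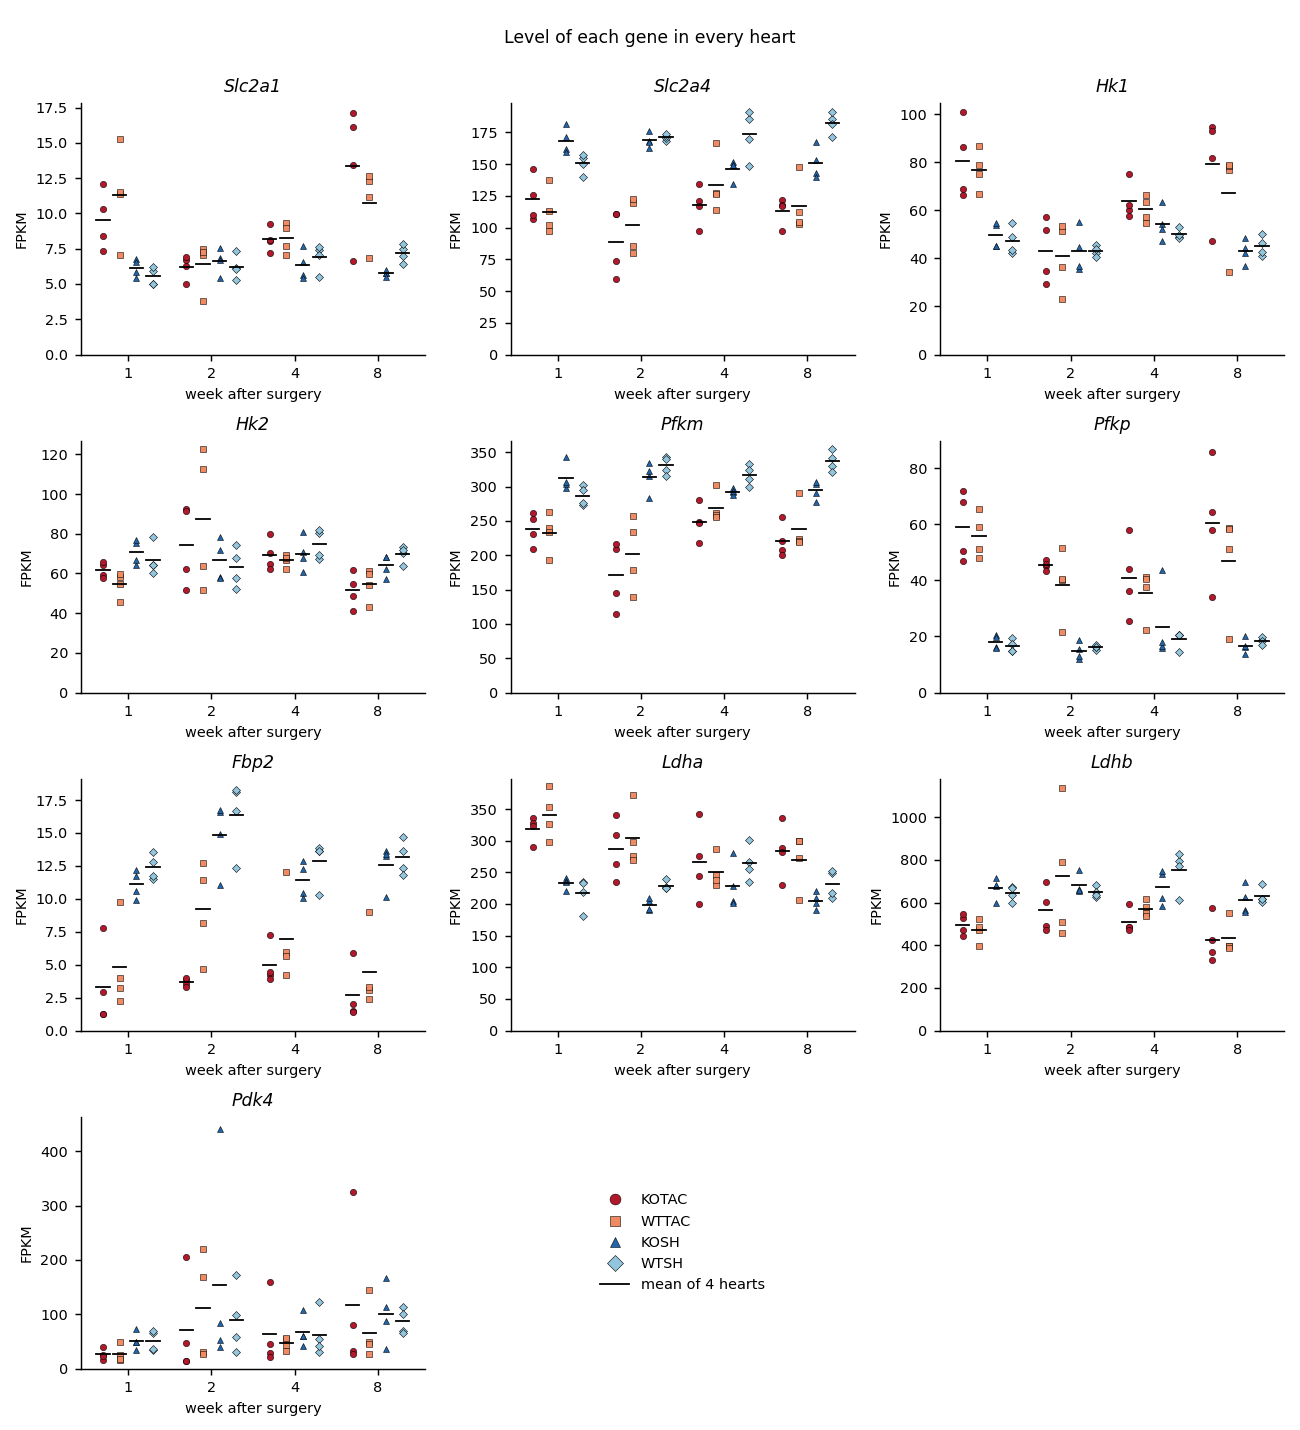
FPKM (vertical axes, starting at 0) of each of the 10 genes in every heart at weeks 1, 2, 4 and 8 after surgery, with 1 point per heart and a bar at the mean of 4 hearts, in the order KOTAC, WTTAC, KOSH and WTSH. Pfkp in TAC hearts stands above most sham hearts at each week, Fbp2 in all 16 KOTAC hearts lies below all 16 KOSH hearts, and Pdk4 varies from 13.4 to 442 FPKM.

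**Figure D2:**
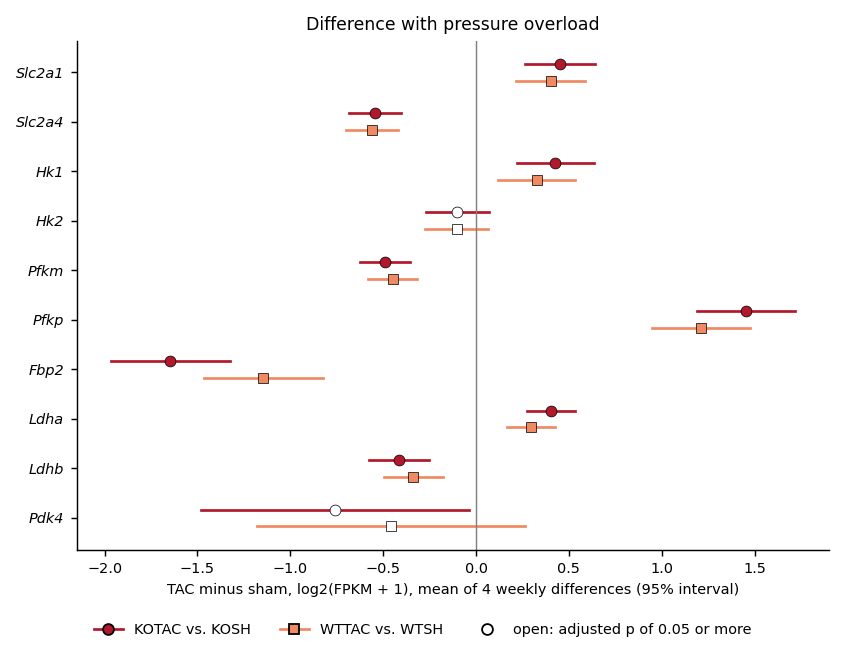
Difference between TAC and sham hearts on the log2(FPKM + 1) scale for each gene, as the mean of 4 weekly differences with its 95% interval, for KOTAC vs. KOSH (circles) and WTTAC vs. WTSH (squares), with open symbols where the adjusted p was 0.05 or more. Pfkp has the largest rise (1.45 and 1.21) and Fbp2 the largest fall (-1.65 and -1.15), and Hk2 and Pdk4 are open in both genotypes.

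The 2 transporters moved in opposite directions. Slc2a4, the insulin-regulated transporter (mm9 chr11:69756045-69761690, - strand), was the more abundant, with means of 110.5 ± 21.3 FPKM in KOTAC and 116 ± 22.2 in WTTAC hearts, against 159 ± 13.5 in KOSH and 169 ± 15.6 in WTSH hearts (SD, n = 16 each). It fell in KOTAC vs. KOSH by 0.54 (SE 0.070, adjusted p = 3.5e-09) and in WTTAC vs. WTSH by 0.56 (SE 0.070, adjusted p = 2.45e-09) on the log2 scale. Of 16 KOTAC hearts 14 were below all 16 KOSH hearts, and of 16 WTTAC hearts 14 were below all 16 WTSH hearts. As fitted the fall was deepest at week 2, when Slc2a4 read 111, 111, 73.4 and 59.4 FPKM in KOTAC hearts, against 176, 168, 168 and 163 in KOSH hearts. WTTAC hearts of week 2 had 119, 123, 85.6 and 80.3 FPKM, against 168, 171, 172 and 173 in WTSH hearts. No TAC heart of week 2 reached a sham heart of its genotype, and the lowest 2 values of each TAC group belong to the 4 libraries with the length slope. Without those 4 libraries the week 2 difference was -0.60 (adjusted p = 0.000863) in KOTAC vs. KOSH and -0.50 (adjusted p = 0.00413) in WTTAC vs. WTSH, against -0.41 and -0.65 at week 8, so that the wild-type fall was then deeper at week 8. Over the 4 weeks the mean difference without them was -0.45 in KOTAC vs. KOSH and -0.49 in WTTAC vs. WTSH, and both stayed called (adjusted p = 2.63e-09 and 5.27e-10).

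Slc2a1, the basal transporter (mm9 chr4:118781316-118809935, + strand), stood more than an order of magnitude below Slc2a4 in FPKM, which is per length, at 9.32 ± 3.596 in KOTAC and 9.17 ± 2.95 in WTTAC, against 6.21 ± 0.758 in KOSH and 6.45 ± 0.958 in WTSH hearts (SD, n = 16 each). At week 1 it had 10.3, 8.40, 12.1 and 7.36 FPKM in KOTAC hearts, against 5.87, 5.40, 6.74 and 6.53 in KOSH hearts. WTTAC hearts had 11.4, 11.5, 15.3 and 7.05 FPKM, against 5.02, 4.998, 5.90 and 6.23 in WTSH hearts. All TAC hearts of week 1 were above the sham hearts of their genotype, by 0.55 (SE 0.19, adjusted p = 0.0173) in KOTAC vs. KOSH and 0.87 (SE 0.19, adjusted p = 8.77e-05) in WTTAC vs. WTSH. The KOTAC vs. KOSH call of week 1 was lost without KOSH heart 2, KOTAC heart 1 or KOTAC heart 3 (0.43 to 0.51, adjusted p up to 0.1). At week 2 the groups overlapped in both genotypes, with differences of -0.08 and 0.01 (adjusted p = 0.755 and 0.972). By week 8 Slc2a1 read 6.60, 17.1, 16.1 and 13.5 FPKM in KOTAC hearts, against 5.74, 5.79, 5.49 and 5.97 in KOSH hearts. In WTTAC hearts of week 8 it read 6.83, 11.2, 12.3 and 12.6 FPKM, against 6.40, 7.47, 6.95 and 7.85 in WTSH hearts. The WTTAC heart at 6.83 FPKM lay within the sham range, the KOTAC heart at 6.60 FPKM was just above it, and the other 3 hearts of each TAC group were clear of it. The difference at week 8 was 1.01 (SE 0.19, adjusted p = 2.89e-05) in KOTAC vs. KOSH and 0.49 (SE 0.19, adjusted p = 0.0593) in WTTAC vs. WTSH, and without the low WTTAC heart (heart 2) the wild-type value became 0.68 (adjusted p = 0.0072). Over the 4 weeks Slc2a1 rose by 0.45 (SE 0.093, adjusted p = 3.84e-05) in KOTAC vs. KOSH and by 0.40 (SE 0.093, adjusted p = 0.000216) in WTTAC vs. WTSH. Exons of Slc2a1 overlap an entry on the opposite strand, Gm12868, and the strand setting of the libraries is not given in the sources used here.

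Hk1, the hexokinase of most tissues that binds mitochondria (mm9 chr10:61731603-61842656, - strand), rose, and Hk2, the insulin-responsive hexokinase of muscle (mm9 chr6:82675019-82724448, - strand), did not pass the test. In sham hearts Hk1 was at 47.5 ± 7.78 FPKM in KOSH and 46.4 ± 4.35 in WTSH hearts and Hk2 was at 67.9 ± 7.47 in KOSH and 68.6 ± 8.11 in WTSH hearts (SD, n = 16 each), and in TAC hearts Hk1 averaged 66.8 ± 21.0 in KOTAC and 61.4 ± 18.4 in WTTAC hearts. At week 1 Hk1 had 86.4, 69.0, 101 and 66.4 FPKM in KOTAC hearts, against 45.2, 45.2, 53.8 and 54.8 in KOSH hearts. WTTAC hearts had 75.3, 86.7, 78.7 and 66.7 FPKM of Hk1, against 42.4, 43.7, 54.7 and 49.0 in WTSH hearts. The groups of week 1 did not overlap in either genotype, and the KOTAC vs. KOSH call of that week was lost without KOTAC heart 3 (0.56, adjusted p = 0.054). At week 8 Hk1 read 47.4, 94.8, 82.0 and 93.0 FPKM in KOTAC hearts, against 48.4, 44.2, 36.8 and 42.1 in KOSH hearts, and 3 of the 4 KOTAC hearts stood above all KOSH hearts. In WTTAC hearts of week 8 Hk1 read 34.4, 76.8, 78.5 and 78.9 FPKM, against 46.3, 50.3, 41.1 and 42.5 in WTSH hearts. The difference was called in KOTAC vs. KOSH at week 8 (0.83, SE 0.21, adjusted p = 0.0012) and not in WTTAC vs. WTSH (0.49, SE 0.21, adjusted p = 0.0921), where leaving out the low WTTAC heart 2 gave 0.78 (adjusted p = 0.00251). Over the 4 weeks Hk1 rose by 0.43 (SE 0.10, adjusted p = 0.000336) in KOTAC vs. KOSH and by 0.33 (SE 0.10, adjusted p = 0.00542) in WTTAC vs. WTSH. With median-of-ratios scaling these were 0.26 (adjusted p = 0.0143) and 0.16 (adjusted p = 0.14), and with quantile normalization the WTTAC vs. WTSH value was 0.19 (adjusted p = 0.0966), so the wild-type rise was not called on either scale. Without the 4 libraries of week 2 the rise was 0.52 (adjusted p = 3.23e-06) in KOTAC vs. KOSH and 0.43 (adjusted p = 7.41e-05) in WTTAC vs. WTSH. Hk1 also shares exon positions with 2210417K05Rik on the other strand.

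The difference of Hk2 was -0.10 (SE 0.084, adjusted p = 0.3) in KOTAC vs. KOSH and -0.10 (SE 0.084, adjusted p = 0.284) in WTTAC vs. WTSH, with 95% intervals of -0.27 to 0.07 and -0.27 to 0.06. At week 2 its values were 51.5, 62.2, 92.5 and 91.5 FPKM in KOTAC hearts, against 72.0, 78.3, 58.4 and 57.9 in KOSH hearts. WTTAC hearts of week 2 had 51.7, 63.98, 112 and 123 FPKM, against 74.2, 67.8, 58.0 and 52.4 in WTSH hearts. The 2 high values of each TAC group are from the libraries with the length slope, in which Hk1 was low instead (34.7 and 29.4 FPKM in KOTAC hearts, 23.1 and 36.3 in WTTAC hearts). Without those 4 libraries Hk2 was called lower in both genotypes, at -0.19 (adjusted p = 0.00817) in KOTAC vs. KOSH and -0.23 (adjusted p = 0.00133) in WTTAC vs. WTSH. Median-of-ratios scaling also gave lower values, -0.27 (adjusted p = 0.00759) and -0.27 (adjusted p = 0.00739).

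The phosphofructokinases parted furthest. Pfkp, the platelet-type subunit (mm9 chr13:6579014-6648023, - strand), averaged 51.5 ± 15.4 FPKM in KOTAC and 44.1 ± 14.1 in WTTAC hearts, against 18.2 ± 7.22 in KOSH and 17.5 ± 2.19 in WTSH hearts (SD, n = 16 each), which is 2.82 times the KOSH mean and 2.52 times the WTSH mean. It rose by 1.45 (SE 0.13, adjusted p = 3.3e-13) in KOTAC vs. KOSH, the 146th largest rise of 13653 genes, and by 1.21 (SE 0.13, adjusted p = 9.74e-11) in WTTAC vs. WTSH, the 180th. At week 1 Pfkp had 71.7, 50.3, 67.7 and 46.9 FPKM in KOTAC hearts, against 16.3, 15.8, 20.4 and 19.8 in KOSH hearts. WTTAC hearts had 51.1, 58.9, 65.4 and 48.1 FPKM, against 14.8, 19.5, 17.2 and 14.6 in WTSH hearts. The lowest TAC heart of week 1 (46.9 FPKM in KOTAC, 48.1 in WTTAC) was far above the highest sham heart (20.4 in KOSH, 19.5 in WTSH). At week 8 Pfkp read 34.0, 85.9, 64.4 and 58.0 FPKM in KOTAC hearts, against 16.3, 20.2, 16.5 and 13.7 in KOSH hearts. In WTTAC hearts of week 8 it read 19.2, 51.3, 58.8 and 58.2 FPKM, against 18.6, 19.8, 18.2 and 16.9 in WTSH hearts. The single WTTAC heart at 19.2 FPKM (heart 2) lay within the sham range, and the other 3 were above 50. At week 4 the rise was smaller, 0.85 (SE 0.26, adjusted p = 0.0312) in KOTAC vs. KOSH and 0.83 (SE 0.26, adjusted p = 0.162) in WTTAC vs. WTSH, with 1 KOSH heart at 43.7 FPKM and 1 WTTAC heart at 22.1 FPKM. Without that WTTAC heart (heart 2) the week 4 rise was 1.03 (adjusted p = 0.0329), and the KOTAC vs. KOSH call was lost without any of KOSH hearts 2, 3 and 4 and KOTAC hearts 2 and 5 (0.67 to 0.79, adjusted p up to 0.163). Over all weeks 12 of 16 KOTAC hearts were above all 16 KOSH hearts, and 15 of 16 WTTAC hearts were above all 16 WTSH hearts. Exons of Pfkp overlap those of Pitrm1 on the opposite strand.

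Pfkm, the muscle-type subunit and the main phosphofructokinase of the heart (mm9 chr15:97923020-97962878, + strand), averaged 220.0 ± 42.3 FPKM in KOTAC and 236 ± 41.1 in WTTAC hearts, against 303 ± 17.8 in KOSH and 318 ± 23.8 in WTSH hearts (SD, n = 16 each). It fell by 0.49 (SE 0.066, adjusted p = 1.01e-08) in KOTAC vs. KOSH and by 0.45 (SE 0.066, adjusted p = 9.31e-08) in WTTAC vs. WTSH. Of 16 KOTAC hearts 15 were below every KOSH heart, and of 16 WTTAC hearts 14 were below every WTSH heart. Without the 4 libraries of week 2 the differences of Pfkm were -0.40 (adjusted p = 1.91e-10) and -0.37 (adjusted p = 2.14e-09). At week 8 Pfkm read 255, 221, 208 and 201 FPKM in KOTAC hearts, against 291, 304, 278 and 307 in KOSH hearts. WTTAC hearts had 291, 224, 221 and 219 FPKM, against 342, 354, 330.0 and 321 in WTSH hearts. Neither genotype overlapped between TAC and sham at that week, and the highest WTTAC value was again heart 2. Pfkm stayed above Pfkp in FPKM in every heart, the highest Pfkp to Pfkm ratio being 0.398.

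Fbp2, the muscle fructose bisphosphatase that opposes phosphofructokinase (mm9 chr13:62938244-62959760, - strand), fell most of the 10. Its mean was 3.65 ± 2.02 FPKM in KOTAC and 6.36 ± 3.62 in WTTAC hearts, against 12.5 ± 2.20 in KOSH and 13.7 ± 2.28 in WTSH hearts (SD, n = 16 each), or 0.293 of the KOSH mean and 0.465 of the WTSH mean. On the log2 scale it fell by 1.65 (SE 0.16, adjusted p = 1.66e-12) in KOTAC vs. KOSH, the 11th lowest of 13653 values, and by 1.15 (SE 0.16, adjusted p = 2.95e-08) in WTTAC vs. WTSH, the 30th lowest. The pseudocount of 1 FPKM makes these values understate the fall of a gene at this level. At week 1 Fbp2 read 1.23, 2.93, 1.24 and 7.80 FPKM in KOTAC hearts, against 11.7, 12.2, 10.6 and 9.94 in KOSH hearts. WTTAC hearts had 3.95, 2.27, 3.19 and 9.72 FPKM, against 12.8, 13.6, 11.5 and 11.7 in WTSH hearts. In both TAC groups of week 1, 1 heart kept much more Fbp2 than the other 3, yet stayed under the sham hearts. At week 8 KOTAC hearts had 5.88, 1.4999, 2.03 and 1.38 FPKM, against 13.6, 10.2, 13.2 and 13.4 in KOSH hearts. At the same week WTTAC hearts had 9.01, 3.10, 2.38 and 3.29 FPKM, against 12.4, 13.7, 11.8 and 14.7 in WTSH hearts. All 16 KOTAC hearts were below all 16 KOSH hearts and 13 of 16 WTTAC hearts below all 16 WTSH hearts. At week 4 the KOTAC vs. KOSH difference of -1.08 (SE 0.32, adjusted p = 0.023) lost its call without any of KOSH hearts 3 and 4 and KOTAC hearts 2 and 5 (-1.05 to -0.999), and the WTTAC vs. WTSH difference of -0.88 (SE 0.32, adjusted p = 0.237) was called without WTTAC heart 2 (-1.14, adjusted p = 0.0471).

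The lactate dehydrogenase subunits also moved apart, by less. Ldha, the subunit of glycolytic muscle (mm9 chr7:54096845-54110997, + strand), averaged 289 ± 45.0 FPKM in KOTAC and 291 ± 50.2 in WTTAC hearts, against 216 ± 23.8 in KOSH and 236 ± 26.8 in WTSH hearts (SD, n = 16 each). It rose by 0.41 (SE 0.064, adjusted p = 3.72e-07) in KOTAC vs. KOSH and by 0.29 (SE 0.064, adjusted p = 0.000107) in WTTAC vs. WTSH. At week 1 its values were 335, 328, 323 and 289.5 FPKM in KOTAC hearts, against 241, 220.1, 236 and 235 in KOSH hearts. WTTAC hearts of week 1 had 327, 298, 387 and 353 FPKM, against 219.5, 235, 233 and 180.3 in WTSH hearts. Every TAC heart was above every sham heart of its genotype at weeks 1 and 2, and in KOTAC vs. KOSH at week 8 too. At week 4 the groups overlapped in both genotypes, with differences of 0.20 in KOTAC vs. KOSH and -0.08 in WTTAC vs. WTSH (adjusted p = 0.323 and 0.883). With median-of-ratios scaling the mean rise was 0.24 (adjusted p = 0.000323) in KOTAC vs. KOSH and 0.12 (adjusted p = 0.0568) in WTTAC vs. WTSH, so the wild-type rise was not called on that scale. The week 1 rise was not called there in KOTAC vs. KOSH (0.22, adjusted p = 0.13) or WTTAC vs. WTSH (0.26, adjusted p = 0.059). Reads of Ldha may be shared with 2 pseudogene entries named after it in the table.

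Ldhb, the subunit of oxidative tissues such as heart (mm9 chr6:142438769-142456477, - strand), was the most abundant of the 10, at 499 ± 90.6 FPKM in KOTAC and 549 ± 188 in WTTAC hearts, against 659 ± 62.8 in KOSH and 669 ± 70.6 in WTSH hearts (SD, n = 16 each). It fell by 0.42 (SE 0.080, adjusted p = 1.38e-05) in KOTAC vs. KOSH and by 0.34 (SE 0.080, adjusted p = 0.000323) in WTTAC vs. WTSH. At week 8 it read 574, 371, 424 and 330.1 FPKM in KOTAC hearts, against 694, 567, 554 and 628 in KOSH hearts. WTTAC hearts of week 8 had 549, 395, 398 and 386 FPKM, against 689, 615, 603 and 616 in WTSH hearts. The wild-type groups did not overlap at week 8, while 1 KOTAC heart lay within the KOSH range. Week 2 went another way, with 489, 472, 696 and 601 FPKM in KOTAC hearts, against 664, 657, 755 and 659 in KOSH hearts. WTTAC hearts of week 2 had 455, 508, 1139 and 791 FPKM, against 682, 651, 625 and 634 in WTSH hearts. The highest 2 values of each TAC group at week 2 come from the libraries with the length slope. The WTTAC vs. WTSH difference at week 2 was 0.06 (SE 0.16, adjusted p = 0.777), and -0.43 (adjusted p = 0.0232) without them, while the KOTAC vs. KOSH difference was -0.29 (SE 0.16, adjusted p = 0.137) and -0.51 (adjusted p = 0.00857) without them.

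Pdk4, a kinase that switches off pyruvate dehydrogenase and is induced by fasting and fatty acids (mm9 chr6:5433351-5446309, - strand), did not pass the test in any comparison as fitted. Its lowest, median and highest values were 13.4, 30.8 and 325 FPKM in KOTAC, 16.5, 44.4 and 221 in WTTAC, 34.1, 59.8 and 442 in KOSH and 30.1, 65.9 and 172 in WTSH hearts. The spread within groups was wide, with single hearts at 442 FPKM (KOSH, week 2), 325 FPKM (KOTAC, week 8) and 221 FPKM (WTTAC, week 2). At week 1 Pdk4 had 15.3, 24.8, 23.7 and 39.8 FPKM in KOTAC hearts, against 48.7, 49.8, 72.0 and 34.1 in KOSH hearts. WTTAC hearts of week 1 had 24.2, 16.5, 17.9 and 49.1 FPKM, against 34.2, 66.1, 68.4 and 36.1 in WTSH hearts. In both genotypes the TAC and sham hearts of week 1 overlapped by 1 TAC heart. The mean difference was -0.76 (SE 0.36, adjusted p = 0.0621) in KOTAC vs. KOSH, with a 95% interval of -1.48 to -0.04, and -0.46 (SE 0.36, adjusted p = 0.272) in WTTAC vs. WTSH, with an interval of -1.18 to 0.26. The KOTAC vs. KOSH difference was called when any of 7 single hearts was left out (-0.96 to -0.82), among them KOTAC heart 2 of week 8 (-0.94, adjusted p = 0.0164), and median-of-ratios scaling gave -0.93 (adjusted p = 0.024) in KOTAC vs. KOSH.

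Ratios of paired isoforms within a heart do not depend on how libraries are scaled. The Pfkp to Pfkm ratio had a median of 0.225 in KOTAC and 0.177 in WTTAC hearts, against 0.0567 in KOSH and 0.0538 in WTSH hearts, which is 3.96 times the KOSH median and 3.29 times the WTSH median. It was above all sham hearts of the genotype in 13 of 16 KOTAC and 15 of 16 WTTAC hearts. The Slc2a1 to Slc2a4 ratio had medians of 0.0750 in KOTAC and 0.0760 in WTTAC, against 0.0397 in KOSH and 0.0385 in WTSH hearts. It was above all sham hearts in 15 of 16 KOTAC and 16 of 16 WTTAC hearts, week 2 included, when Slc2a1 was not called. The Ldha to Ldhb ratio had medians of 0.572 in KOTAC and 0.596 in WTTAC, against 0.331 in KOSH and 0.352 in WTSH hearts. It was above all sham hearts in 16 of 16 KOTAC and 13 of 16 WTTAC hearts, and 1 WTTAC heart, at 0.237, was below all of them. The Hk1 to Hk2 ratio had medians of 0.989 in KOTAC and 1.01 in WTTAC, against 0.703 in KOSH and 0.696 in WTSH hearts, and was the least uniform. It was above all sham hearts in 13 of 16 KOTAC and 10 of 16 WTTAC hearts and below all of them in 2 and 2, which are the libraries with the length slope. The longest annotated transcript has 4278 bases for Hk1 and 5513 for Hk2, so the longer gene of this pair read high in those libraries. For Slc2a1 and Slc2a4 the lengths are close, at 2607 and 2524 bases. The part of the length slope in these ratios was not tested. These ratios are a description with no test.

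**Figure D3:**
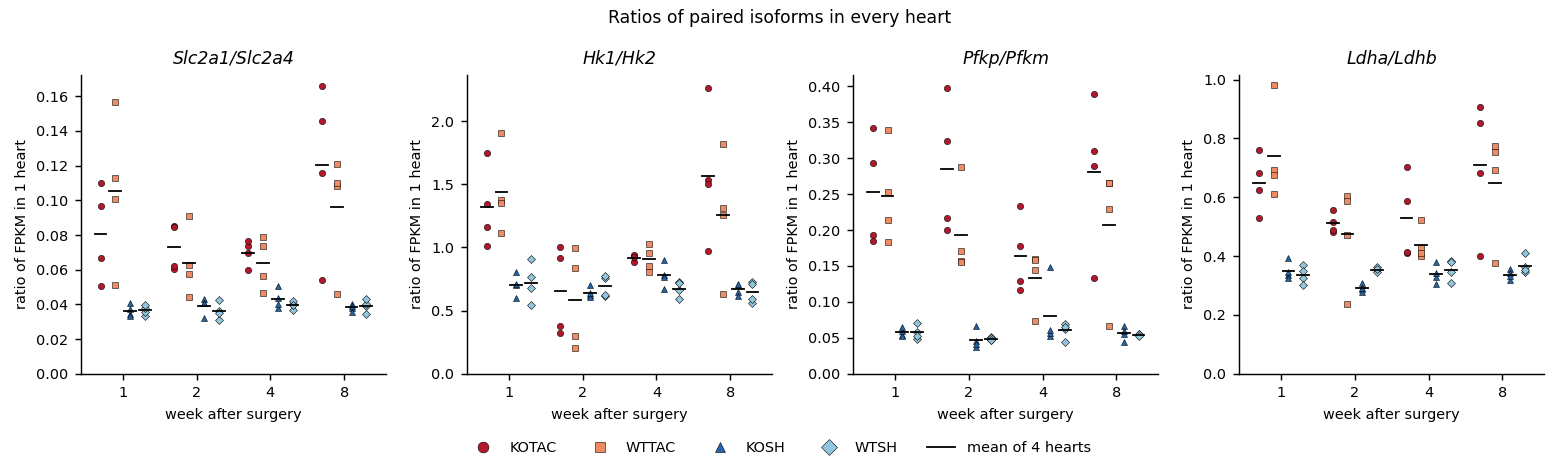
Ratio of FPKM of paired isoforms within each heart (vertical axes, starting at 0) by week after surgery, with 1 point per heart and a bar at the mean of 4 hearts, in the order KOTAC, WTTAC, KOSH and WTSH. The Pfkp to Pfkm ratio of most TAC hearts exceeds that of sham hearts, and the low Hk1 to Hk2 ratios at week 2 (0.321 and 0.375 in KOTAC, 0.206 and 0.296 in WTTAC hearts) belong to 4 libraries.

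Without pressure overload, none of the 10 genes was called with loss of Ndufs4. In KOSH vs. WTSH limma called 0.0513% of all genes and 0 of the 10, with 631 genes and 0 of the 10 at an unadjusted p under 0.05. The differences of the 10 lay between -0.12 (Fbp2 and Ldha) and 0.16 (Pdk4). The 95% interval was -0.23 to 0.05 for Slc2a4 and -0.27 to 0.27 for Pfkp. By single week 1 gene of the 10 did not overlap between KOSH and WTSH hearts at week 1 (Slc2a4, above), 1 at week 2 (Ldha, below), 1 at week 4 (Pfkm, below) and 3 at week 8 (Slc2a1, Slc2a4 and Pfkm, all below), beside 4.96%, 2.09%, 3.96% and 8.91% of all genes in either direction, and none of these weekly differences was called. The week 8 values of KOSH hearts stood below WTSH hearts by a narrow margin, the highest KOSH heart being at 5.97 FPKM for Slc2a1, 167 for Slc2a4 and 307 for Pfkm, against a lowest WTSH heart at 6.40, 172 and 321.

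Under pressure overload Fbp2 was the 1 gene of the 10 called between genotypes, and its call depended on the setting. In KOTAC vs. WTTAC 0.82% of all genes were called, 0.71% lower, and of the 10 only Fbp2 was, at -0.63 (SE 0.16, adjusted p = 0.0397) with a 95% interval of -0.95 to -0.31. The balance of these calls over all genes turned with the scaling, with 15 higher and 97 lower on FPKM as deposited, 59 higher and 36 lower with median-of-ratios scaling and 73 higher and 33 lower with quantile normalization. The gap was clearest at week 2, when Fbp2 read 3.80, 3.55, 3.97 and 3.29 FPKM in KOTAC and 8.14, 11.4, 12.7 and 4.64 in WTTAC hearts, against 16.6, 11.05, 16.8 and 14.9 in KOSH and 16.7, 12.3, 18.1 and 18.2 in WTSH hearts. All KOTAC hearts were below all WTTAC hearts at that week, as for 3.32% of all genes in either direction, and at weeks 1, 4 and 8 the groups overlapped. At single weeks the difference was -0.52, -1.06, -0.36 and -0.56 at weeks 1, 2, 4 and 8, with no adjusted p under 0.118. The call was lost without week 2, at -0.48 (adjusted p = 0.456), without the 4 libraries of week 2, at -0.66 (adjusted p = 0.0754), with no filter (adjusted p = 0.0671), median-of-ratios scaling (0.0708), quantile normalization (0.09), a replicate block (0.0529) or only the hearts compared (0.343), and in 15 of 32 fits that left out 1 heart. For the other 9 genes the KOTAC vs. WTTAC difference ran from -0.14 (Pdk4) to 0.24 (Pfkp, 95% interval -0.02 to 0.51, adjusted p = 0.435).

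Whether pressure overload acted differently in the genotypes was tested as the difference between KOTAC vs. KOSH and WTTAC vs. WTSH. limma called 0% of all genes and 0 of the 10, with 312 genes and 1 of the 10 at an unadjusted p under 0.05. That gene was Fbp2, at -0.50 (SE 0.23, unadjusted p = 0.0302 in limma, 95% interval -0.95 to -0.05). For Pfkp the difference was 0.24 with an interval of -0.13 to 0.62, and for Slc2a4 it was 0.02 with an interval of -0.18 to 0.21.

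The effect of TAC changed with time for 7 of the 10 genes, where 50.8% of all genes were called by limma's moderated F over weeks 1, 2, 4 and 8. F was 8.14 for Slc2a1 (adjusted p = 0.00134), 7.61 for Pfkm (0.00193) and 6.29 for Hk1 (0.005). Ldha, Slc2a4, Hk2 and Pfkp followed with F of 5.44, 5.20, 4.91 and 3.57 (adjusted p = 0.00949, 0.0115, 0.0142 and 0.0421). Fbp2, Ldhb and Pdk4 were not called (adjusted p = 0.134, 0.0893 and 0.85). The pattern depended on week 2: 2 of the 10 genes were called without week 2 (Pfkp and Ldha) and 3 without its 4 libraries with the length slope, beside 31.1% and 35.9% of all genes in those fits. With median-of-ratios scaling of all hearts Pfkp and Ldha were not called (adjusted p = 0.115 and 0.0685), and Ldhb was (0.0481). Pfkp was not called with quantile normalization (0.0937), no filter (0.0709) or the replicate block (0.0756). Array weights lost the call of Hk2 (0.19) and added Fbp2 (0.00138). The call of Pfkp was also lost in 17 of the 64 fits that left out 1 heart (F of 2.53 to 5.40 over the 64, adjusted p up to 0.111). Among weeks in sham hearts limma called 1.22% of all genes and 0 of the 10, with 0 of the 10 at an unadjusted p under 0.05.

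By single week, the number of the 10 genes called in KOTAC vs. KOSH was 8, 5, 2 and 8 at weeks 1, 2, 4 and 8, where 36.9%, 42.4%, 10.4% and 40.2% of all genes were called. In WTTAC vs. WTSH it was 8, 5, 0 and 5, where 56%, 46.4%, 0.212% and 16.4% of all genes were called. Some week 1 calls hung on single hearts. Pfkm in WTTAC vs. WTSH lost its call in 6 of 8 fits that left out 1 compared heart (adjusted p up to 0.18). Ldhb in KOTAC vs. KOSH lost its call in 5 of 8 such fits (adjusted p up to 0.0975). At week 4 the 2 genes called in KOTAC vs. KOSH were Pfkp and Fbp2. Without the 4 libraries with the length slope, Slc2a4, Pfkm and Ldhb were called there too (adjusted p = 0.0287, 0.0407 and 0.0144). In WTTAC vs. WTSH that fit called Slc2a4 at week 4 (-0.39, adjusted p = 0.0456). It no longer called Fbp2 at week 2 in WTTAC vs. WTSH (-0.69, adjusted p = 0.192). Counting genes whose 4 TAC and 4 sham hearts did not overlap gave 8, 5, 2 and 6 of 10 in KOTAC vs. KOSH, beside 36.2%, 30.2%, 16.3% and 40.3% of all genes. In WTTAC vs. WTSH the counts were 9, 4, 2 and 5 of 10, beside 49.5%, 30.7%, 7.05% and 21.5% of all genes. Over weeks 1, 2, 4 and 8 the median difference of all genes was 0.18, 0.05, 0.10 and 0.21 in KOTAC vs. KOSH. In WTTAC vs. WTSH it was 0.31, 0.17, 0.01 and 0.05. With median-of-ratios scaling the week 1 rise of Hk1 was not called in KOTAC vs. KOSH (adjusted p = 0.0607) or WTTAC vs. WTSH (0.197). Slc2a1 in KOTAC vs. KOSH was not called either (0.103), and quantile normalization also lost these calls. Median-of-ratios scaling further lost Ldha at week 1 in both genotypes, at week 2 in WTTAC vs. WTSH (0.156) and at week 8 in KOTAC vs. KOSH (0.185). As fitted, for Slc2a1 and Hk1 the difference was larger at weeks 1 and 8 than at weeks 2 and 4 in both genotypes. Their week 2 values depended on the 4 libraries with the length slope: without them Hk1 was at 0.35 in KOTAC vs. KOSH and 0.28 in WTTAC vs. WTSH (adjusted p = 0.244 and 0.345), and Slc2a1 at 0.04 in KOTAC vs. KOSH and 0.21 in WTTAC vs. WTSH (adjusted p = 0.929 and 0.51). In that fit the week 8 differences of Slc2a1 and Hk1 in WTTAC vs. WTSH, each 0.49, were called (adjusted p = 0.0352 and 0.0307). Pfkm was then at -0.56 in KOTAC vs. KOSH and -0.43 in WTTAC vs. WTSH at week 2, beside -0.42 and -0.50 at week 8. The week 2 rise of Ldha was not called in that fit, at 0.32 in both genotypes (adjusted p = 0.112 in KOTAC vs. KOSH and 0.0968 in WTTAC vs. WTSH).

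**Figure D4:**
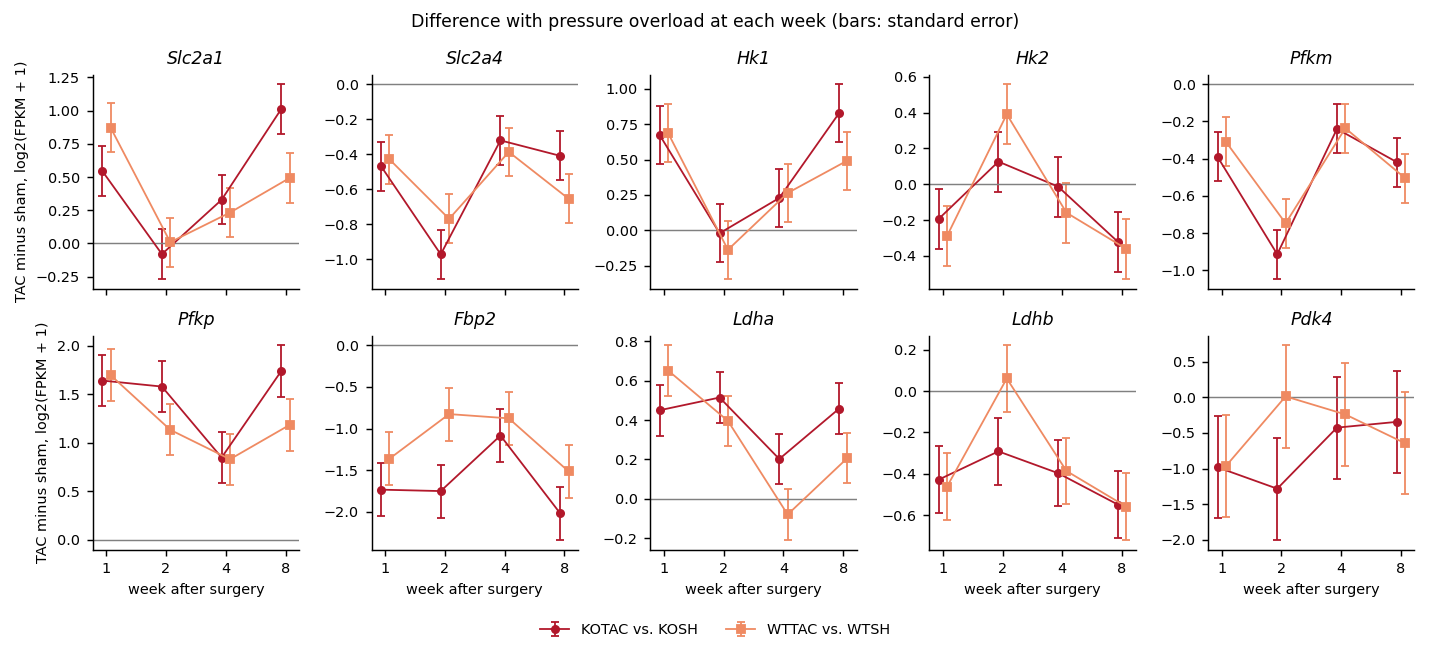
Difference between TAC and sham hearts on the log2(FPKM + 1) scale at weeks 1, 2, 4 and 8 for each gene (each panel with its own vertical scale, grey line at 0), as the limma estimate from 4 hearts against 4 with its standard error, for KOTAC vs. KOSH (circles) and WTTAC vs. WTSH (squares). With all hearts, Slc2a1 and Hk1 lie near 0 at week 2 and are high at week 8 (1.01 and 0.83 in KOTAC vs. KOSH), while Slc2a4 and Pfkm are lowest at week 2 (-0.97 and -0.91 in KOTAC vs. KOSH, against -0.60 and -0.56 without the 4 libraries).

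Beyond the 10 genes, most enzymes between hexose phosphate and pyruvate rose. Of 11 remaining glycolytic enzymes tested, 8 rose and 1 fell in KOTAC vs. KOSH as in WTTAC vs. WTSH, with medians of 0.28 and 0.24. Median-of-ratios scaling left 6 higher and 2 lower in each genotype. Quantile normalization left 6 that rose and 1 that fell in KOTAC vs. KOSH, while 5 rose and 2 fell in WTTAC vs. WTSH. Pgam1, a phosphoglycerate mutase, was at 32.3 ± 4.45 FPKM in KOTAC hearts, against 18.9 ± 4.19 in KOSH hearts, and at 31.8 ± 6.85 in WTTAC hearts, against 18.6 ± 2.80 in WTSH hearts (SD, n = 16 each). Its rise of 0.75 in KOTAC vs. KOSH and 0.72 in WTTAC vs. WTSH on the log2 scale was the largest of the list, followed by Gapdh, glyceraldehyde 3-phosphate dehydrogenase, at 0.57 in KOTAC vs. KOSH and 0.42 in WTTAC vs. WTSH (adjusted p = 4.18e-07 and 0.000102). Eno3, the muscle enolase, was the gene that fell (-0.46 in KOTAC vs. KOSH and -0.41 in WTTAC vs. WTSH), named here after its value was seen.

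Genes of pyruvate entry and of pyruvate dehydrogenase with its regulators fell more often than they rose. The list also counts the kinases Pdk1, Pdk2 and Pdk3, which hold pyruvate back. Pdk2 fell by 0.56 in KOTAC vs. KOSH and 0.52 in WTTAC vs. WTSH. The count thus gives no direction for pyruvate entry itself. Of 13 tested, 8 fell and 1 rose in KOTAC vs. KOSH, and 9 fell and 1 rose in WTTAC vs. WTSH, with medians of -0.30 and -0.25, and median-of-ratios scaling gave 11 and 12 lower. Without week 2, 8 were lower in KOTAC vs. KOSH and 6 in WTTAC vs. WTSH (medians -0.19 and -0.19), and without the 4 libraries 7 and 8 were lower (medians -0.23 and -0.18), with 1 higher throughout. Pdp2, a phosphatase that reactivates pyruvate dehydrogenase, was at 2.42 ± 1.01 FPKM in KOTAC hearts, against 5.50 ± 1.21 in KOSH hearts, and at 3.16 ± 1.53 in WTTAC hearts, against 6.17 ± 0.978 in WTSH hearts. It fell by 0.97 in KOTAC vs. KOSH and 0.87 in WTTAC vs. WTSH (adjusted p = 1.69e-08 and 2.5e-07). Pdpr, a regulatory subunit of pyruvate dehydrogenase phosphatase, fell by 0.58 in KOTAC vs. KOSH and 0.60 in WTTAC vs. WTSH (adjusted p = 0.0163 and 0.0135). Without the 4 libraries of week 2 Pdpr was at -0.24 in KOTAC vs. KOSH and -0.23 in WTTAC vs. WTSH (adjusted p = 0.0142 and 0.0174). The gene that rose was Pdk3, a pyruvate dehydrogenase kinase (0.57 in KOTAC vs. KOSH and 0.54 in WTTAC vs. WTSH), also named after its value was seen.

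Among 5 genes of lactate and pyruvate exchange, 1 rose and 3 fell in each genotype. Slc16a3, the lactate exporter MCT4, was at 2.76 ± 1.503 FPKM in KOTAC hearts, against 0.543 ± 0.226 in KOSH hearts, and at 2.40 ± 1.70 in WTTAC hearts, against 0.597 ± 0.193 in WTSH hearts. It rose by 1.19 in KOTAC vs. KOSH and 0.95 in WTTAC vs. WTSH, while Ldhd, the D-lactate dehydrogenase, fell by 0.78 in KOTAC vs. KOSH and 0.69 in WTTAC vs. WTSH. Other hexose transporters numbered 5, of which 1 rose and 1 fell in KOTAC vs. KOSH and 3 rose and 1 fell in WTTAC vs. WTSH, where median-of-ratios scaling gave 1 higher and 2 lower in each. Without week 2 or without the 4 libraries 1 rose and 1 fell in WTTAC vs. WTSH. Slc2a12 (GLUT12) fell by 0.62 in KOTAC vs. KOSH and 0.49 in WTTAC vs. WTSH, and Slc2a10 (GLUT10) rose by 0.37 in KOTAC vs. KOSH and 0.35 in WTTAC vs. WTSH.

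Of 6 other hexokinases, phosphofructokinases and bisphosphate regulators tested, 3 rose and 1 fell in KOTAC vs. KOSH and 2 rose and 1 fell in WTTAC vs. WTSH. With median-of-ratios scaling 1 rose and 2 fell in KOTAC vs. KOSH, and 2 rose and 2 fell in WTTAC vs. WTSH. Pfkfb1, an enzyme that makes and breaks the phosphofructokinase activator fructose 2,6-bisphosphate, was at 1.12 ± 0.499 FPKM in KOTAC hearts, against 4.78 ± 1.501 in KOSH hearts, and at 2.09 ± 1.41 in WTTAC hearts, against 7.27 ± 1.65 in WTSH hearts. It fell by 1.43 in KOTAC vs. KOSH and 1.51 in WTTAC vs. WTSH.

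Side branches were mixed. Of 15 glycogen genes 6 rose and 5 fell in KOTAC vs. KOSH, and 5 rose and 5 fell in WTTAC vs. WTSH. Phkg1, the muscle phosphorylase kinase catalytic subunit, fell by 1.23 in KOTAC vs. KOSH and 1.15 in WTTAC vs. WTSH, and Ppp1r3c, a glycogen targeting subunit of protein phosphatase 1, rose by 0.89 in KOTAC vs. KOSH and 0.72 in WTTAC vs. WTSH. Of 9 pentose phosphate and polyol genes 6 rose and 2 fell in KOTAC vs. KOSH and 6 rose and 1 fell in WTTAC vs. WTSH, and 4 and 3 rose with median-of-ratios scaling. G6pdx, which opens the pentose phosphate pathway, rose by 0.50 in KOTAC vs. KOSH and 0.47 in WTTAC vs. WTSH, and Sord, sorbitol dehydrogenase, fell by 0.95 in KOTAC vs. KOSH and 0.68 in WTTAC vs. WTSH. Of 7 hexosamine genes 4 rose and 1 fell in KOTAC vs. KOSH, and 3 rose in WTTAC vs. WTSH, where median-of-ratios scaling gave 3 higher and 2 lower in each. Without the 4 libraries of week 2, 5 rose in each genotype, and 1 fell in KOTAC vs. KOSH. Gfpt2, an isoform of the rate-limiting enzyme, rose by 0.91 in KOTAC vs. KOSH and 0.87 in WTTAC vs. WTSH, and Gnpnat1, the next acetyltransferase, by 0.34 in KOTAC vs. KOSH and 0.26 in WTTAC vs. WTSH. Of 12 regulators 4 rose and 4 fell in KOTAC vs. KOSH and 3 rose and 4 fell in WTTAC vs. WTSH, counts that ran from 1 to 4 rising in KOTAC vs. KOSH and 3 to 6 in WTTAC vs. WTSH over both scalings and the fits without week 2 or its 4 libraries. Tbc1d4 (AS160), which holds GLUT4 vesicles inside the cell until insulin signals, fell by 0.81 in KOTAC vs. KOSH and 0.68 in WTTAC vs. WTSH, and Hif1a, which encodes the hypoxia-inducible factor subunit, rose by 0.59 in KOTAC vs. KOSH and 0.56 in WTTAC vs. WTSH. These named genes, taken as the 2 called genes with the largest changes of each list, kept their sign under median-of-ratios scaling and quantile normalization. Several had smaller values on those scales. Gnpnat1 was at 0.16 in KOTAC vs. KOSH and 0.08 in WTTAC vs. WTSH with quantile normalization, where its wild-type call was lost (adjusted p = 0.145), and at 0.21 and 0.13 with median-of-ratios scaling. Slc2a10 was at 0.22 in KOTAC vs. KOSH and 0.18 in WTTAC vs. WTSH and G6pdx at 0.30 in WTTAC vs. WTSH with quantile normalization, and Gapdh at 0.25 in WTTAC vs. WTSH with median-of-ratios scaling, all still called.

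**Figure D5:**
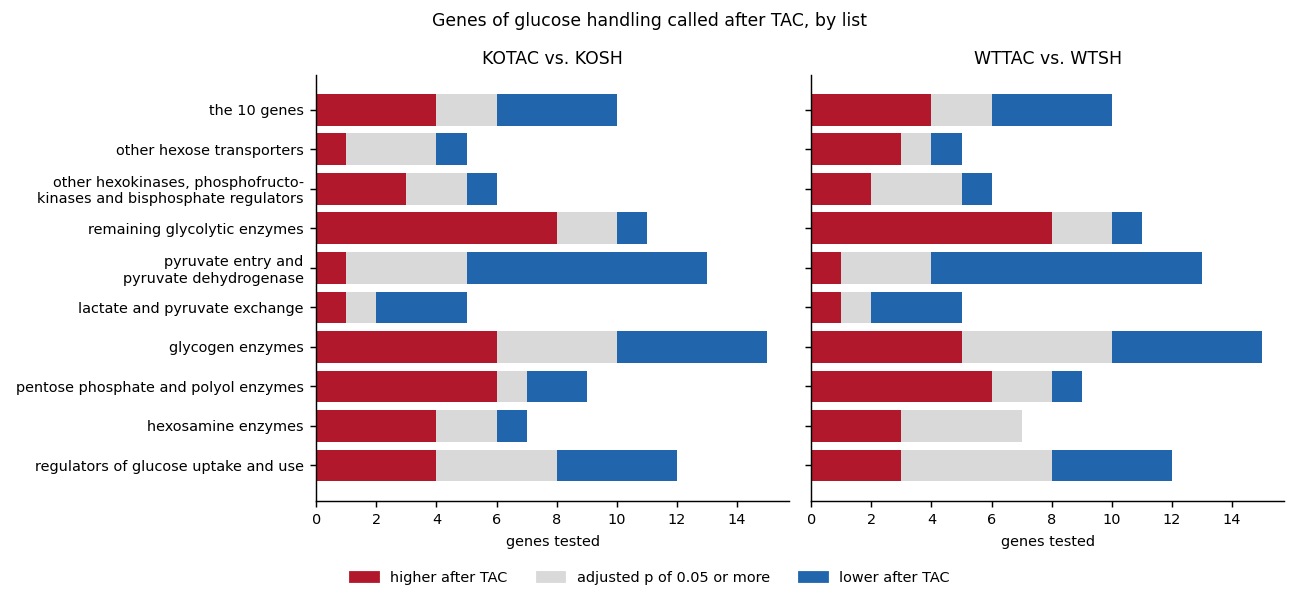
Number of tested genes (horizontal axes) in each list of glucose handling that were higher after TAC, not called or lower after TAC by limma at an adjusted p under 0.05, for KOTAC vs. KOSH (left) and WTTAC vs. WTSH (right). Glycolytic enzymes are mostly higher (8 of 11 in both), and genes of pyruvate entry and pyruvate dehydrogenase more often lower than higher (8 and 9 of 13 lower, 1 higher), where 48% and 48.2% of all genes were higher and 14% and 11.7% lower.

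Markers of other cell types moved with TAC as well. All 7 fibroblast markers rose in both genotypes, and their summed level had a median of 764 FPKM (509.7 to 2225) in KOTAC and 679 (345 to 2719) in WTTAC hearts, against 298 (218 to 387) in KOSH and 286 (233 to 420) in WTSH hearts. Of 7 endothelial markers 6 rose in each genotype (with median-of-ratios scaling 2 rose and 1 fell in KOTAC vs. KOSH and 4 rose in WTTAC vs. WTSH), of 8 macrophage and monocyte markers 7 rose in each, and of 6 smooth muscle and pericyte markers 5 rose in KOTAC vs. KOSH and 4 in WTTAC vs. WTSH. Of 8 cardiomyocyte markers 1 rose and 4 fell in KOTAC vs. KOSH, and 1 rose and 3 fell in WTTAC vs. WTSH. Under either scaling 3 smooth muscle and pericyte markers rose in each genotype. Median-of-ratios scaling gave 1 cardiomyocyte marker higher and 5 lower in each. Quantile normalization gave 1 higher and 4 lower in KOTAC vs. KOSH, and only 2 lower in WTTAC vs. WTSH. As fitted, 48% of all genes were higher in KOTAC vs. KOSH and 48.2% in WTTAC vs. WTSH. Of 4 erythroid markers tested 3 rose in KOTAC vs. KOSH and none was called in WTTAC vs. WTSH, 1 lymphocyte marker tested rose in WTTAC vs. WTSH, and 1 adipocyte marker tested was not called. The erythroid count fell to 0 under median-of-ratios scaling, quantile normalization or without the 4 libraries and to 1 without week 2, and the lymphocyte marker was called neither with quantile normalization nor without the 4 libraries or week 2. Without week 2, 4 endothelial markers rose and 1 fell in KOTAC vs. KOSH and 2 rose in WTTAC vs. WTSH, and 3 smooth muscle and pericyte markers rose in each genotype. Without the 4 libraries, 4 endothelial markers rose in KOTAC vs. KOSH and 5 in WTTAC vs. WTSH. In those libraries the endothelial sum was 448 and 525 FPKM in KOTAC and 605 and 578 in WTTAC hearts. Hearts 1 and 2 of week 2 had 263 and 293 FPKM in KOTAC and 326 and 335 in WTTAC. Of 5 skeletal muscle markers 1 rose and 2 fell in KOTAC vs. KOSH and 1 rose and 1 fell in WTTAC vs. WTSH, and the list summed to medians of 3.81 FPKM in KOTAC and 4.88 in WTTAC hearts, against 4.48 in KOSH and 4.01 in WTSH hearts. The low WTTAC heart 2 of week 8 had a fibroblast sum of 376 FPKM, against 701, 480 and 722 in the other WTTAC hearts of that week, and WTTAC heart 2 of week 4 had the lowest sum of all TAC hearts, 345. The part of these cell types in the levels of Slc2a1, Hk1, Pfkp and Ldha was not tested.

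Across the 16 group means of log2(FPKM + 1) several of the 10 genes varied together, as a description of groups that share the TAC and sham division. Slc2a4 and Pfkm were closest (Pearson's r = 0.985), Slc2a1 varied with Hk1 (0.879) and Pfkp with Ldha (0.884), while Pfkp ran opposite to Fbp2 (-0.962) and Slc2a1 opposite to Ldhb (-0.874). Within groups, as deviations of 64 hearts from their group means, r was 0.862 for Slc2a4 and Pfkm, 0.741 for Slc2a1 and Hk1, 0.674 for Pfkp and Ldha, -0.659 for Pfkp and Fbp2 and -0.546 for Slc2a1 and Ldhb. Those points share library and normalization, and without the 4 libraries of week 2 the 5 values were 0.850, 0.723, 0.672, -0.635 and -0.513.

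Over the same 16 group means, the genes most like each of the 10 were as follows. Slc2a1 was most like Limd1 (r = 0.989), Slk (0.972) and B230312A22Rik (0.968), and Slc2a4 most like Pdk2 (0.987), a pyruvate dehydrogenase kinase, Pfkm (0.985) and Dennd4b (0.985). Pfkm was most like Cs (0.989), citrate synthase, Dhrs11 (0.986) and Slc2a4 (0.985). Pfkp was closest to Pqlc3 (0.988), Mfap5 (0.987), a microfibril protein of the matrix, and Panx1 (0.987), a membrane channel. Fbp2 was closest to Acaa2 (0.987), a thiolase of mitochondrial fatty acid oxidation, Ces1d (0.981) and Fitm1 (0.977), a lipid droplet protein. Hk1 was closest to 1110002E22Rik (0.978), Zfyve16 (0.970) and Atp6ap1 (0.967), and Hk2 to Tmem126a (0.926), Fam165b (0.921) and Atp5h (0.920). Ldha was closest to Fam108a (0.969), Selm (0.967) and Taok2 (0.966), and Ldhb to Mrpl42 (0.983), Suclg1 (0.982) and Metap1d (0.973). The likeness was lowest for Pdk4, with Epas1 (0.897), Scgb1c1 (0.873) and Hsd11b1 (0.863). Of the genes nearest to Pfkp, Mfap5 rose by 3.15 in KOTAC vs. KOSH and 2.80 in WTTAC vs. WTSH, and of those nearest to Fbp2, Ces1d fell by 3.23 in KOTAC vs. KOSH and 2.35 in WTTAC vs. WTSH, and Acaa2 fell by 1.30 in KOTAC vs. KOSH and 0.99 in WTTAC vs. WTSH.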

How the data were processed

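RNA-seq of 64 hearts (RIN of at least 8) was deposited as 1 table of FPKM. The deposited FPKM values were made by the authors from 50-base paired reads checked with FastQC, mapped to mm9 with TopHat (fewer than 2 mismatches, unique hits) and quantified with Cufflinks on Ensembl release 66. For tool versions and the strand setting the record is silent: they are not given in the sources used here. In the study, tests ran on read counts, but FPKM are not counts, so limma 3.58.1 (R 4.3.3, trended empirical Bayes) was fitted to log2(FPKM + 1) of the 13653 genes that reached an FPKM of 1 in 4 or more libraries, with 1 mean for each of 16 groups. A pseudocount of 1 understates changes of low genes. Depth is unknown from FPKM, so no counting interval is given.

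Comparisons were averages of the 4 weekly differences, the weekly differences, the genotype by TAC interaction, and F tests of TAC by week and of week in sham hearts, with Benjamini-Hochberg adjustment over all tested genes and calls at 0.05. Alternatives were a filter at FPKM 5 or none, a pseudocount of 0.1, median-of-ratios scaling, quantile normalization, no trend, array weights, a replicate block, no week 2, no 4 libraries of week 2, only the hearts compared, and each heart left out. Named genes were the 10, Ndufs4, the 2 called genes of each of 9 other glucose lists with the largest mean absolute change, and the 3 genes most like each of the 10. A gene that this rule names is not reported here. The 10 genes and all lists were chosen with earlier results of these data known. Tables and figures used Python 3.11.15, numpy 2.4.6, pandas 2.3.3 and matplotlib 3.10.9, and the limma step was tested on simulated data. Promoters are from RefSeq.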

Additional observations from a re-analysis of the deposited data

Results flagged for a closer look

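Among 160 sets of 4 hearts (each of the 10 genes in each group), 16 held 1 heart that stood apart from the other 3, in 12 different hearts, and chance alone flags about 1 in 20 such sets. WTTAC heart 2 of week 8 accounted for Hk1 (34.4 FPKM, against 76.8 to 78.9 in the other 3), Pfkm (291, against 219 to 224), Pfkp (19.2, against 51.3 to 58.8) and Ldhb (549, against 386 to 398). WTTAC heart 2 of week 4 accounted for Pfkm (302 FPKM, against 255 to 261) and Pfkp (22.1, against 37.7 to 41.1). Slc2a1 was low in WTTAC heart 3 of week 2 (3.77 FPKM, against 7.05 to 7.45), and Ldhb was high in KOTAC heart 3 of week 4 (592, against 471 to 488).

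In sham hearts Pfkp was high in KOSH heart 1 of week 4 (43.7 FPKM, against 15.8 to 17.9) and low in WTSH heart 4 of week 4 (14.6, against 20.5 to 20.6). Slc2a4 was low in KOSH heart 4 of week 4 (134 FPKM, against 149 to 152). Fbp2 was low in KOSH heart 2 of week 8 (10.2 FPKM, against 13.2 to 13.6) and in WTSH heart 1 of week 4 (10.3, against 13.6 to 13.9). Ldha was high in WTSH heart 1 of week 2 (239 FPKM, against 225 to 226). Ldhb was high in KOSH heart 3 of week 2 (755 FPKM, against 657 to 664) and in WTSH heart 1 of week 8 (689, against 603 to 616).

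The effect of TAC differed among weeks in limma's F test for 7 of the 10 genes, beside 50.8% of all genes. F was 8.14 for Slc2a1, 5.20 for Slc2a4, 6.29 for Hk1, 4.91 for Hk2, 7.61 for Pfkm, 3.57 for Pfkp and 5.44 for Ldha. Without week 2 the calls of Slc2a1, Slc2a4, Hk1, Hk2 and Pfkm were lost, where 31.1% of all genes were called.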

How the results depend on the processing

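The number of the 10 genes called between genotypes under TAC was 1 (Fbp2) as fitted and 0 with no filter, median-of-ratios scaling, quantile normalization, the replicate block, no week 2, no 4 libraries of week 2 or only the hearts compared, and 0 to 1 with 1 heart left out, while the Fbp2 difference stayed between -0.73 and -0.54 there. For TAC by week it was 7 as fitted, 2 without week 2 and 3 without the 4 libraries, and for week in sham hearts 1 (Fbp2) with only the sham hearts fitted. Ldhb in WTTAC vs. WTSH at week 2 turned from 0.06 to -0.35 with array weights and to -0.43 without the 4 libraries. Of 2717 single-gene values of the 10 genes and Ndufs4, those of Ldhb included, 2572 kept their side of the threshold (72 of them, uncalled, changed sign). A call was lost in 64 and gained in 79, and the 2 that reversed were the Ldhb values just given. Of 4576 with a heart left out 4441 kept their side (169 of them, uncalled, changed sign), 110 lost a call and 25 gained one.

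Over all genes, KOTAC vs. WTTAC had 112 calls as fitted, 282 with array weights, 42 without the 4 libraries, 8 on dropping week 2 and 7 in a fit of the compared hearts alone. KOSH vs. WTSH had 7, then 80 with array weights, 21 in a fit of the compared hearts alone and 12 with either scaling, and the interaction had 0, then 2 with array weights. TAC by week had 6939, then 4242 on dropping week 2, and week in sham hearts 166, then 2092 with array weights, 1065 with the sham hearts alone, 410 without the 4 libraries and 90 on dropping week 2. Over all weeks, deviations of same-numbered hearts had a median r of 0.02 (-0.357 to 0.535 over 52 pairs). Differently numbered hearts had a median r of 0.007 (-0.636 to 0.598 over 204 pairs). At week 2 the 4 libraries with the length slope carry the numbers 3 and 4 in both TAC conditions. A median over all weeks cannot show whether hearts of a week share a batch, so no conclusion on pairing is drawn. With the replicate block 8 and 8 of the 10 genes stayed called in KOTAC vs. KOSH and WTTAC vs. WTSH, and Fbp2 in KOTAC vs. WTTAC was -0.63 (limma, adjusted p = 0.0529). Depth is unknown, so what it limits was not assessed.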
